A study of Mus musculus with 12 samples.

Results

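The SREBP programme is the set of genes that make cholesterol and fatty acids under the sterol regulatory element-binding proteins. It was followed here as 38 listed mouse genes, 21 of the sterol branch and 17 of the fatty acid branch, in sorted CD8+ and CD4+ T cells cultured with or without linoleic acid, an essential polyunsaturated fatty acid. A gene was measured where a probe set carried its symbol and no other, and where several did, the one with the highest mean was used. By that rule 35 members were measured (19 sterol, 16 fatty acid) among 22180 named genes, and 33 of them (19 sterol, 14 fatty acid) passed the filter on low intensity and were tested among 14323 genes. Acat2, Idi1 and Scd2 had no probe set of their own and were not analysed here, and Me1 and Fads2 lay below the filter. The study set out to compare how CD4 and CD8 T cells respond to linoleic acid. Whole mouse splenocytes were held for 24 h in medium that did or did not contain linoleic acid at 50 µM, and the T cells were then sorted, so the fatty acid reached them in the presence of other spleen cells. RNA of each sort was hybridized to 1 MoGene-2_0-st array, giving 12 arrays in 4 groups of 3, which were CD8 T cells from linoleic acid culture, CD8 T cells from control culture, CD4 T cells from linoleic acid culture and CD4 T cells from control culture. Strain, age, the carrier of the fatty acid and the sorting gates were not stated in the sources used here. Nothing in the labels makes the replicates separate animals or cultures, so a p-value speaks only of the spread among these samples, and that spread may be technical.

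SREBPs are transcription factors that sit in the membrane of the endoplasmic reticulum, bound to the escort protein SCAP. When sterols are plentiful, INSIG proteins hold the complex there, and when sterols run low it moves to the Golgi, where proteases release the part that enters the nucleus. The product of Srebf2 acts mainly on cholesterol genes and that of Srebf1 mainly on fatty acid genes, and in liver cells polyunsaturated fatty acids are known to lower the activity of the Srebf1 product. In T cells the programme is known to be switched on upon activation, when growing cells need membrane lipids.

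Values are log2 RMA intensities, so 1 unit is a factor of 2 in intensity, and levels of a gene were compared between arrays. Different probe sets were set against each other only through the filter and the level of the receptor genes given next. That level is not a measured detection limit of any single probe set. Array medians ran between 4.66 and 4.80, and arrays correlated at 0.946 to 0.984. Olfactory and vomeronasal receptor genes, 1405 on the array, had a 95th percentile of log2 5.11, and the means of Me1, Fads2, Fads3 and Elovl7 lay below it, as did those of 4469 tested genes. T cell markers, 5 of 6 measured, averaged 9.80 to 10.3 in every array. CD8 markers averaged 9.70 to 10.1 in CD8 arrays and 6.24 to 7.06 in CD4 arrays, while CD4 markers averaged 4.96 to 5.37 in CD8 arrays and 8.22 to 8.74 in CD4 arrays. B cell markers, 13 of 15 measured, were not at the floor and averaged 5.79 to 7.14 in CD8 arrays and 6.22 to 7.63 in CD4 arrays. They followed the replicate number of the labels, at 5.79 to 6.25 in the 4 arrays numbered 1 and 7.01 to 7.63 in the other 8, and myeloid markers did likewise, at 4.79 to 4.96 in the arrays numbered 1 and 5.21 to 5.64 in the others. CD8 linoleic acid replicate 3 lay at the end of several ranges. It had the lowest T cell marker mean of the 12 arrays (9.80) and the highest NK cell (5.02) and platelet (4.84) marker means. Its array median (4.80) was the highest as well. Its myeloid marker mean (5.64) and its mean of the receptor genes (3.46) were also the highest, but only just. The next were 5.63 in CD4 linoleic acid replicate 2 and 3.41 in CD8 linoleic acid replicate 2. In bulk samples of this kind, fewer cells of a type and less RNA per cell cannot be told apart.

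Several genes of the late steps of cholesterol synthesis were lower in CD8 than in CD4 T cells. Over both cultures, 6 of the 19 sterol members were lower in CD8 T cells in limma (adjusted p under 0.05), namely Cyp51, Sqle, Fdft1, Sc5d, Msmo1 and Insig1, at 1.31-fold to 1.55-fold less. Of all genes tested, 2.76% were lower by the same rule and 1.95% higher, 4.71% in all. None of the 14 fatty acid members was lower, although 2 of them lay past an unadjusted p of 0.05 to the higher side (Acaca and Elovl1) besides Elovl7, an elongase, which was called higher in CD8 T cells. Its CD4 values all lay below the 5.11 of the receptor genes. If that level is taken as the floor of its probe set, its fold is only a lower bound. With those values set to 5.11, Elovl7 was at least 1.26-fold higher. By that unadjusted rule 6.26% of all genes were higher. The median difference, CD8 minus CD4, was -0.18 over the sterol members, with 13 of 19 lower, -0.0048 over the fatty acid members, with 7 of 14 lower, and -0.0070 over all genes tested, with 52% lower. Standard errors of single members ran between 0.079 and 0.44, with a median of 0.10.

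Cyp51, probe set 17445308, encodes lanosterol demethylase, which acts on lanosterol on the way to cholesterol. It measured 5.77, 5.41 and 5.27 in the CD8 linoleic acid arrays, 5.67, 5.75 and 5.85 in the CD8 control arrays, 6.34, 6.30 and 6.07 in the CD4 linoleic acid arrays and 6.21, 6.14 and 6.43 in the CD4 control arrays. All 6 CD8 arrays lay below all 6 CD4 arrays, which 2.64% of genes showed in that direction. Over both cultures Cyp51 averaged 5.62 ± 0.23 in CD8 and 6.25 ± 0.13 in CD4 T cells (SD, n = 6 each), a difference of -0.63 ± 0.10 (SE, limma adjusted p = 0.00159).

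Squalene synthase, encoded by Fdft1 (probe set 17307588), commits farnesyl diphosphate to sterols. Its probe set measured 7.42, 7.61 and 7.56 in the CD8 linoleic acid arrays, 7.49, 7.59 and 7.72 in the CD8 control arrays, 8.07, 7.84 and 7.99 in the CD4 linoleic acid arrays and 8.10, 7.78 and 7.98 in the CD4 control arrays. The CD8 and CD4 arrays did not overlap here either, and the difference was -0.39 ± 0.09 (SE, limma adjusted p = 0.016). Sqle, probe set 17311807, encodes squalene epoxidase, the next enzyme and a rate-limiting one, and measured 5.55, 5.71 and 5.29 in the CD8 linoleic acid arrays, 5.56, 5.97 and 5.70 in the CD8 control arrays, 6.15, 6.06 and 5.84 in the CD4 linoleic acid arrays and 6.27, 6.11 and 6.34 in the CD4 control arrays. Its CD8 arrays were the lower ones within each culture, but CD8 control replicate 2 lay above the lowest CD4 linoleic acid array, and the difference was -0.50 ± 0.10 (SE, limma adjusted p = 0.0108).

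Msmo1, probe set 17509629, encodes the methylsterol monooxygenase that removes methyl groups after the Cyp51 step. It measured 6.38, 5.998 and 6.15 in the CD8 linoleic acid arrays, 6.43, 6.29 and 6.60 in the CD8 control arrays, 6.79, 6.53 and 6.70 in the CD4 linoleic acid arrays and 6.78, 6.66 and 6.81 in the CD4 control arrays. The groups touched only through CD8 control replicate 3, above the lowest CD4 linoleic acid array, and the difference was -0.41 ± 0.09 (SE, limma adjusted p = 0.0192). Sc5d, probe set 17525955, encodes the sterol desaturase near the end of the pathway and measured 7.50, 7.40 and 7.52 in the CD8 linoleic acid arrays, 7.48, 7.74 and 7.66 in the CD8 control arrays, 7.98, 7.95 and 7.97 in the CD4 linoleic acid arrays and 8.05, 7.69 and 8.23 in the CD4 control arrays. CD4 control replicate 2 was the array that reached into the CD8 range, and the difference was -0.43 ± 0.10 (SE, limma adjusted p = 0.0183).

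Insig1, probe set 17435584, encodes an anchor of the SREBP complex in the endoplasmic reticulum and is itself an SREBP target. It measured 8.48, 8.62 and 8.55 in the CD8 linoleic acid arrays, 8.35, 8.85 and 8.66 in the CD8 control arrays, 9.04, 9.08 and 9.005 in the CD4 linoleic acid arrays and 9.10, 8.78 and 9.46 in the CD4 control arrays. All CD8 linoleic acid arrays lay below all CD4 linoleic acid arrays, while CD8 control replicate 2 and CD4 control replicate 2 crossed in control culture. The difference over both cultures was -0.49 ± 0.12 (SE, limma adjusted p = 0.0251).

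**Figure D1:**
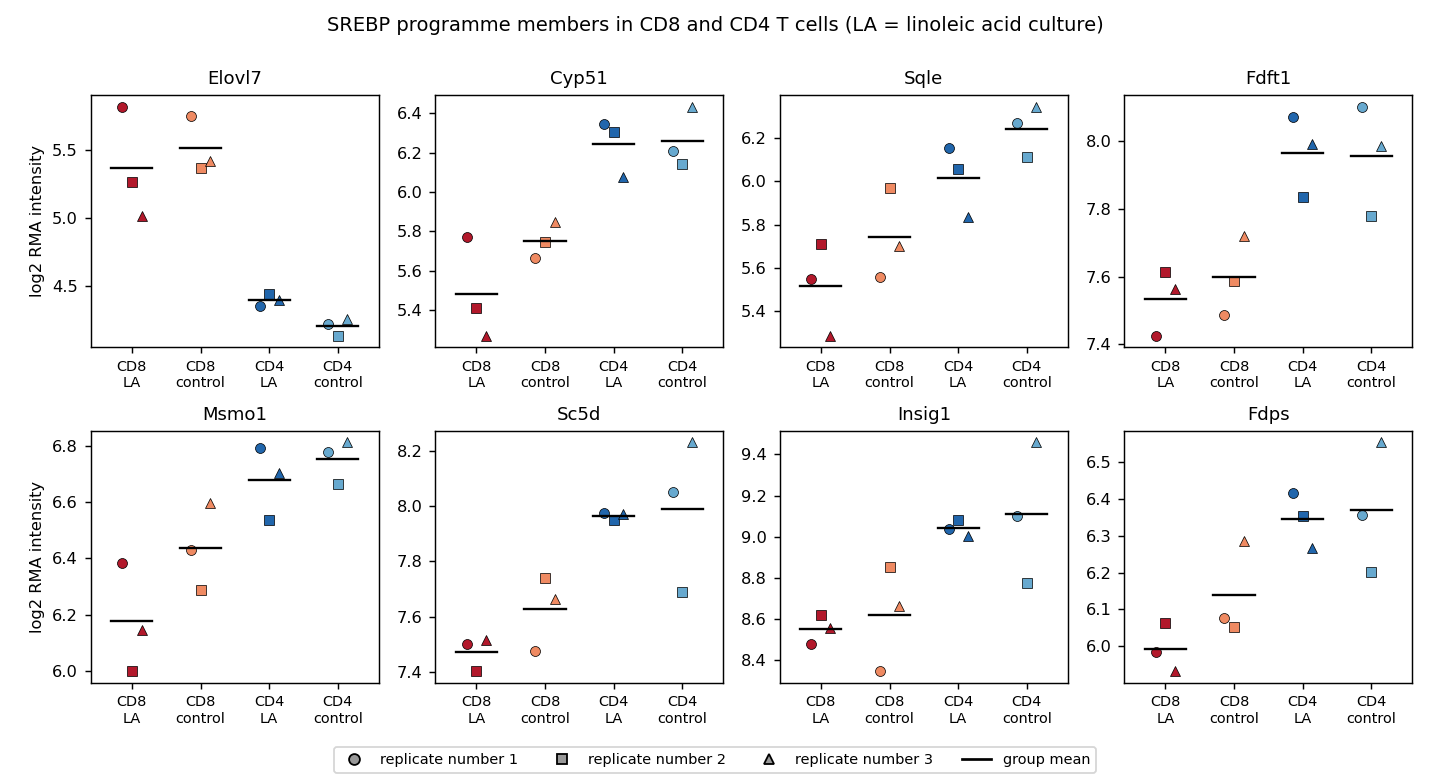
Log2 RMA intensity (vertical axes) of 8 members in each of the 12 arrays, by group along the horizontal axis (CD8 linoleic acid, CD8 control, CD4 linoleic acid, CD4 control), with the marker shape giving the replicate number and a bar at each group mean of 3 arrays. Elovl7 sits higher in the CD8 groups, and Cyp51 and Fdft1 sit lower there with no overlap of the 6 CD8 and the 6 CD4 arrays.

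The other sterol members did not pass the test in this comparison. Fdps, farnesyl diphosphate synthase, measured 5.99, 6.06 and 5.93 in the CD8 linoleic acid arrays, 6.08, 6.05 and 6.29 in the CD8 control arrays, 6.42, 6.35 and 6.27 in the CD4 linoleic acid arrays and 6.36, 6.20 and 6.55 in the CD4 control arrays. Its difference was -0.29 ± 0.09 (SE, limma adjusted p = 0.0763). Pmvk, phosphomevalonate kinase, measured 6.33, 6.22 and 6.18 in the CD8 linoleic acid arrays, 6.61, 6.54 and 6.43 in the CD8 control arrays, 6.51, 6.69 and 6.58 in the CD4 linoleic acid arrays and 6.64, 6.54 and 6.44 in the CD4 control arrays. CD8 linoleic acid arrays were the lowest of the 4 groups for Pmvk, and the difference over both cultures was -0.18 ± 0.08 (SE, limma adjusted p = 0.297).

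Dhcr7, the reductase of the last step to cholesterol, measured 6.59, 6.26 and 6.03 in the CD8 linoleic acid arrays, 6.63, 6.67 and 6.61 in the CD8 control arrays, 6.82, 6.55 and 6.56 in the CD4 linoleic acid arrays and 6.82, 6.77 and 6.41 in the CD4 control arrays. Srebf2, the gene of the main cholesterol regulator, measured 8.82, 8.49 and 7.70 in the CD8 linoleic acid arrays, 8.86, 8.77 and 8.63 in the CD8 control arrays, 9.01, 9.004 and 8.59 in the CD4 linoleic acid arrays and 8.89, 8.77 and 8.63 in the CD4 control arrays. In both genes CD8 linoleic acid replicate 3 was the lowest of the 12 arrays, and the differences over both cultures were -0.19 ± 0.11 for Dhcr7 and -0.27 ± 0.16 for Srebf2 (SE, limma adjusted p = 0.51 and 0.504). Mvd, mevalonate diphosphate decarboxylase, measured 6.003, 5.97 and 5.70 in the CD8 linoleic acid arrays, 5.67, 5.98 and 5.80 in the CD8 control arrays, 5.99, 5.67 and 5.69 in the CD4 linoleic acid arrays and 5.41, 5.83 and 5.71 in the CD4 control arrays. Stard4, a carrier that moves cholesterol between membranes, measured 5.62, 5.32 and 5.49 in the CD8 linoleic acid arrays, 5.44, 5.65 and 5.61 in the CD8 control arrays, 5.59, 5.59 and 5.54 in the CD4 linoleic acid arrays and 5.54, 5.62 and 5.74 in the CD4 control arrays. The CD8 and CD4 arrays overlapped for Mvd and for Stard4.

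Of the remaining sterol members, Hmgcs1, HMG-CoA synthase at the entry of the pathway, spanned 7.30 to 7.92 over the 12 arrays, and its difference was 0.02 ± 0.10 (SE). Mevalonate kinase, encoded by Mvk, spanned 5.15 to 5.81. Lanosterol synthase, encoded by Lss, spanned 5.06 to 5.92. For the enzymes between lanosterol and cholesterol that did not pass, the ranges were 5.69 to 6.04 for the sterol reductase gene Tm7sf2, 7.08 to 7.53 for the sterol dehydrogenase gene Nsdhl, 5.62 to 6.08 for the ketosteroid reductase gene Hsd17b7 and 7.05 to 7.66 for the sterol isomerase gene Ebp. The lower levels in CD8 T cells covered 5 of the 11 tested enzymes from squalene to cholesterol and Insig1, and 0 of the 5 tested mevalonate enzymes, where 2.76% of all genes were lower. With the replicate number as a block, Fdps of the mevalonate enzymes passed as well (adjusted p = 0.0403), where 5.45% of all genes were lower and 9.23% called in all. Same-numbered arrays did not deviate together throughout in this comparison. Whether the steps of the pathway differ from each other was not tested.

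The 6 sterol calls treat the CD8 and the CD4 arrays as 6 separate values each, although arrays of both cultures share replicate numbers. When same-numbered arrays were averaged first, leaving 3 values against 3, Cyp51 (adjusted p = 0.0086) and Elovl7 (0.00516) passed, with 2.21% of all genes called, and Insig1 (0.1), Fdft1 (0.137), Sqle (0.0728), Msmo1 (0.126) and Sc5d (0.0894) did not. Without the 4 arrays numbered 1, Cyp51 (-0.67, adjusted p = 0.00567), Elovl7 (0.96, 0.000229) and Scd1 (-0.48, 0.0338) passed, with 3.54% of all genes called. Without the 4 arrays numbered 3, Cyp51 (-0.60, adjusted p = 0.0178) and Elovl7 (1.26, 0.0014) passed, with 2.78% of all genes called. Leaving out single arrays ended the call of Insig1 for CD8 control replicates 1 and 3 (adjusted p = 0.0709 and 0.0514), CD4 linoleic acid replicates 1 and 2 (0.0534 and 0.0675) and CD4 control replicate 3 (0.0558). It ended that of Msmo1 for CD8 linoleic acid replicate 2 (0.0576), CD8 control replicate 2 (0.0627), CD4 linoleic acid replicate 1 (0.056) and CD4 control replicate 3 (0.0518). For Sc5d this held for CD8 linoleic acid replicate 2 (0.0523) and CD8 control replicate 1 (0.0568), and for Fdft1 for CD8 control replicate 1 (0.05). Without CD8 control replicate 1, 4 members and 3.8% of all genes were called. Fdps passed without CD4 control replicate 2 (0.0482). B cell markers lay in the same direction as the sterol members, with all 13 lower in CD8 T cells (median -0.45), 0 of them past the threshold without the block and 9 with it. With the B cell marker mean of each array as a covariate the same 7 members passed, at -0.67 for Cyp51, -0.51 for Sqle, -0.45 for Msmo1, -0.45 for Insig1, -0.42 for Sc5d, -0.40 for Fdft1 and 1.06 for Elovl7, with 8.08% of all genes called. Within each group that mean varied mostly with the replicate number, so this fit cannot separate a B cell share from what the number marks. The part of B cells in these calls was not tested.

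Promoter windows, 300 bases from 250 before to 50 after the annotated start, were on hand for 31 of the 38 members (RefSeq, GRCm38.p6), and not for Sqle, Fdft1, Fdps, Stard4, Scd1, Scd2 and Fads1. The windows shown are those of the sterol members that were lower in CD8 T cells and have one, of Elovl7, which was higher, and of Hmgcs1, the only member with the full element TCACNCCAC searched as the sterol regulatory element, whose mRNA did not pass the test. Capitals mark TCACNCCA and CCAAT on either strand.
Cyp51, chr5:4104648-4104947, minus strand: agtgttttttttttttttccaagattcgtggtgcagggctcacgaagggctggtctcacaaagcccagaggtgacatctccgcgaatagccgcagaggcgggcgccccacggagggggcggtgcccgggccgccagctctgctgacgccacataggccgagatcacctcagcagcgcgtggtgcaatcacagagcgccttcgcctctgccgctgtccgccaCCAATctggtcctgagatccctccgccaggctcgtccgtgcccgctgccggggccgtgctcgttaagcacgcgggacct
Msmo1, chr8:64733529-64733828, minus strand: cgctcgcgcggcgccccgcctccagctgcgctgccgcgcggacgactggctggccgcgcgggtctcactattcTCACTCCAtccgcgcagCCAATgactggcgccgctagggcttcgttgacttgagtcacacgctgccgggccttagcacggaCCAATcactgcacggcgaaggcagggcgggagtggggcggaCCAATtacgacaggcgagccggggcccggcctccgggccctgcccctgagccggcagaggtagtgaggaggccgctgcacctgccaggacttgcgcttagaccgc
Sc5d, chr9:42264251-42264550, minus strand: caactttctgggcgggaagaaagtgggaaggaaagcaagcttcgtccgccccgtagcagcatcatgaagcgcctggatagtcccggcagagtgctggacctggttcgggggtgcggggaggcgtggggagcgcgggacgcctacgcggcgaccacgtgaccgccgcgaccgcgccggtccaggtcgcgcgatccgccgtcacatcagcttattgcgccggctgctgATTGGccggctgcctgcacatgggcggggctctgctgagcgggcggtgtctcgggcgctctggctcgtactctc
Insig1, chr5:28071162-28071461, plus strand: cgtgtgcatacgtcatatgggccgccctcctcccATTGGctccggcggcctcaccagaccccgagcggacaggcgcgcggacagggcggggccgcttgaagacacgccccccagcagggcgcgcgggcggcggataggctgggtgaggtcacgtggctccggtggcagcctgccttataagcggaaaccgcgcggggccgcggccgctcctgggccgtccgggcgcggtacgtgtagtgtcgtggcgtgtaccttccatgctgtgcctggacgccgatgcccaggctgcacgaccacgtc
Elovl7, chr13:108214154-108214453, plus strand: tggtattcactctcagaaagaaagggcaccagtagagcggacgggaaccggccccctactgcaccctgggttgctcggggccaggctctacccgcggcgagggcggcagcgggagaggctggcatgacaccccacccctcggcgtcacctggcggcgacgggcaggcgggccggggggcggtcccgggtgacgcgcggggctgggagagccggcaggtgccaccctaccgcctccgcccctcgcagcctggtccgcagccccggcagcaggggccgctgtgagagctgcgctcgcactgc
Hmgcs1, chr13:119690101-119690400, plus strand: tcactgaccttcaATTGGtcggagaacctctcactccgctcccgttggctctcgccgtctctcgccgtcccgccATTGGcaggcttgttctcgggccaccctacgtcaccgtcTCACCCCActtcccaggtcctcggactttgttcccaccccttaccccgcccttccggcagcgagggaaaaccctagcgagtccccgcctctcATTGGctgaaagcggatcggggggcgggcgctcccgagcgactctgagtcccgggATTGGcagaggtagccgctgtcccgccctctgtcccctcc
The box CCAAT, bound by NF-Y, was in the windows of 16 of 17 sterol genes (94.1%) and 9 of 14 fatty acid genes (64.3%), against 41.1% of 27025 genes with a window. GGGCGG, an Sp1 box, was in 16 of 17 sterol genes and 10 of 14 fatty acid genes (71.4%), against 38.2% of genes. TCACNCCAC was in Hmgcs1 alone among the members with a window (3.23% of them), against 1.44% of genes. The 1 base shorter TCACNCCA, chosen after seeing the windows and contained in the full element, was in Hmgcs1, Msmo1 and Srebf2 (9.68% of members with a window). It was in 0 of 14 fatty acid genes and in 4.97% of all genes with a window. Both strands were searched, and the window of Elovl7 held GGGCGG but neither CCAAT nor TCACNCCA. A gene could have several windows, and a match describes the letters in the window only. Only these exact strings were searched, so a window without a match may still hold a variant of the sterol regulatory element.

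In the fatty acid branch, Elovl7 was the gene that separated the cell types. Elovl7, probe set 17289717, encodes a fatty acid elongase, known from the human enzyme to prefer saturated chains. It measured 5.82, 5.27 and 5.02 in the CD8 linoleic acid arrays, 5.75, 5.37 and 5.43 in the CD8 control arrays, 4.36, 4.44 and 4.40 in the CD4 linoleic acid arrays and 4.22, 4.13 and 4.26 in the CD4 control arrays. All 6 CD8 arrays lay above all 6 CD4 arrays, which 1.51% of genes showed in that direction, and all CD4 values lay below the 5.11 that 95% of the olfactory and vomeronasal receptor genes stayed under. CD8 linoleic acid replicate 3 lay below it too. Over both cultures the difference of the measured intensities was 1.14 ± 0.12 (SE, limma adjusted p = 4.51e-05), from 5.44 ± 0.30 in CD8 and 4.30 ± 0.12 in CD4 T cells (SD, n = 6 each).

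The enzymes at the core of fatty acid synthesis did not pass. Acaca, acetyl-CoA carboxylase, measured 6.14, 5.96 and 6.10 in the CD8 linoleic acid arrays, 6.15, 6.19 and 6.21 in the CD8 control arrays, 6.06, 6.06 and 5.64 in the CD4 linoleic acid arrays and 5.86, 5.92 and 5.91 in the CD4 control arrays. Its CD8 arrays were higher in control culture without overlap, as were those of Fasn and Elovl7. These are 3 of 33 members, against 1221 of 14323 genes tested. Over both cultures the difference for Acaca was 0.22 ± 0.09 (SE, limma adjusted p = 0.25). Fasn, fatty acid synthase, measured 7.64, 7.58 and 6.67 in the CD8 linoleic acid arrays, 7.58, 7.74 and 7.61 in the CD8 control arrays, 7.60, 7.75 and 7.48 in the CD4 linoleic acid arrays and 7.40, 7.57 and 7.38 in the CD4 control arrays. CD8 linoleic acid replicate 3 lay well below all other arrays, and the difference over both cultures was -0.06 ± 0.14 (SE, limma adjusted p = 0.927). Srebf1, the gene of the main fatty acid regulator, measured 6.48, 6.27 and 5.91 in the CD8 linoleic acid arrays, 6.83, 6.27 and 6.17 in the CD8 control arrays, 6.58, 6.37 and 6.17 in the CD4 linoleic acid arrays and 6.37, 6.23 and 6.31 in the CD4 control arrays. Its cell types overlapped, at -0.02 ± 0.13 (SE, limma adjusted p = 0.982).

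Among the elongases, Elovl1, for saturated very long chains, measured 7.09, 7.16 and 7.12 in the CD8 linoleic acid arrays, 7.09, 7.28 and 7.23 in the CD8 control arrays, 7.005, 6.92 and 6.89 in the CD4 linoleic acid arrays and 7.27, 6.69 and 6.92 in the CD4 control arrays. Elovl5, which lengthens polyunsaturated chains made from linoleic acid, measured 10.05, 10.01 and 9.92 in the CD8 linoleic acid arrays, 10.08, 10.12 and 10.10 in the CD8 control arrays, 9.95, 9.78 and 9.91 in the CD4 linoleic acid arrays and 10.15, 9.67 and 9.94 in the CD4 control arrays. Elovl6, which lengthens palmitate, measured 6.66, 6.47 and 6.21 in the CD8 linoleic acid arrays, 6.52, 6.65 and 6.69 in the CD8 control arrays, 6.92, 6.60 and 6.54 in the CD4 linoleic acid arrays and 6.72, 6.73 and 6.64 in the CD4 control arrays. Differences over both cultures were 0.21 ± 0.10 for Elovl1, 0.14 ± 0.09 for Elovl5 and -0.16 ± 0.10 for Elovl6 (SE, limma adjusted p = 0.339, 0.542 and 0.551), so none passed. Mid1ip1, which encodes a partner of acetyl-CoA carboxylase and was the only measured member with several probe sets of its own (3), measured 5.18, 5.32 and 4.95 in the CD8 linoleic acid arrays, 5.51, 5.24 and 5.21 in the CD8 control arrays, 5.06, 5.33 and 5.24 in the CD4 linoleic acid arrays and 5.74, 5.40 and 5.06 in the CD4 control arrays. Fads3, of the fatty acid desaturase family, measured 4.26, 4.51 and 4.49 in the CD8 linoleic acid arrays, 4.16, 4.63 and 4.40 in the CD8 control arrays, 4.37, 4.45 and 4.30 in the CD4 linoleic acid arrays and 4.66, 4.37 and 4.26 in the CD4 control arrays. Both overlapped between the cell types, and Fads3 stayed under 5.11 in every array.

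Fads2, the desaturase that acts on linoleic acid itself, measured 3.63, 3.34 and 3.54 in the CD8 linoleic acid arrays, 3.34, 3.81 and 3.71 in the CD8 control arrays, 3.46, 3.28 and 4.13 in the CD4 linoleic acid arrays and 3.47, 3.76 and 3.33 in the CD4 control arrays. All its values lay below the filter at 4.28, and it was not tested. Me1, malic enzyme, a source of NADPH, was also below it, at 2.73 to 3.61. The suppliers of acetyl-CoA, Acly and Acss2, spanned 8.11 to 8.70 and 7.001 to 7.59, and the elongation reductase gene Tecr 9.35 to 9.80, with differences between the cell types of -0.05, 0.03 and -0.02.

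**Figure D2:**
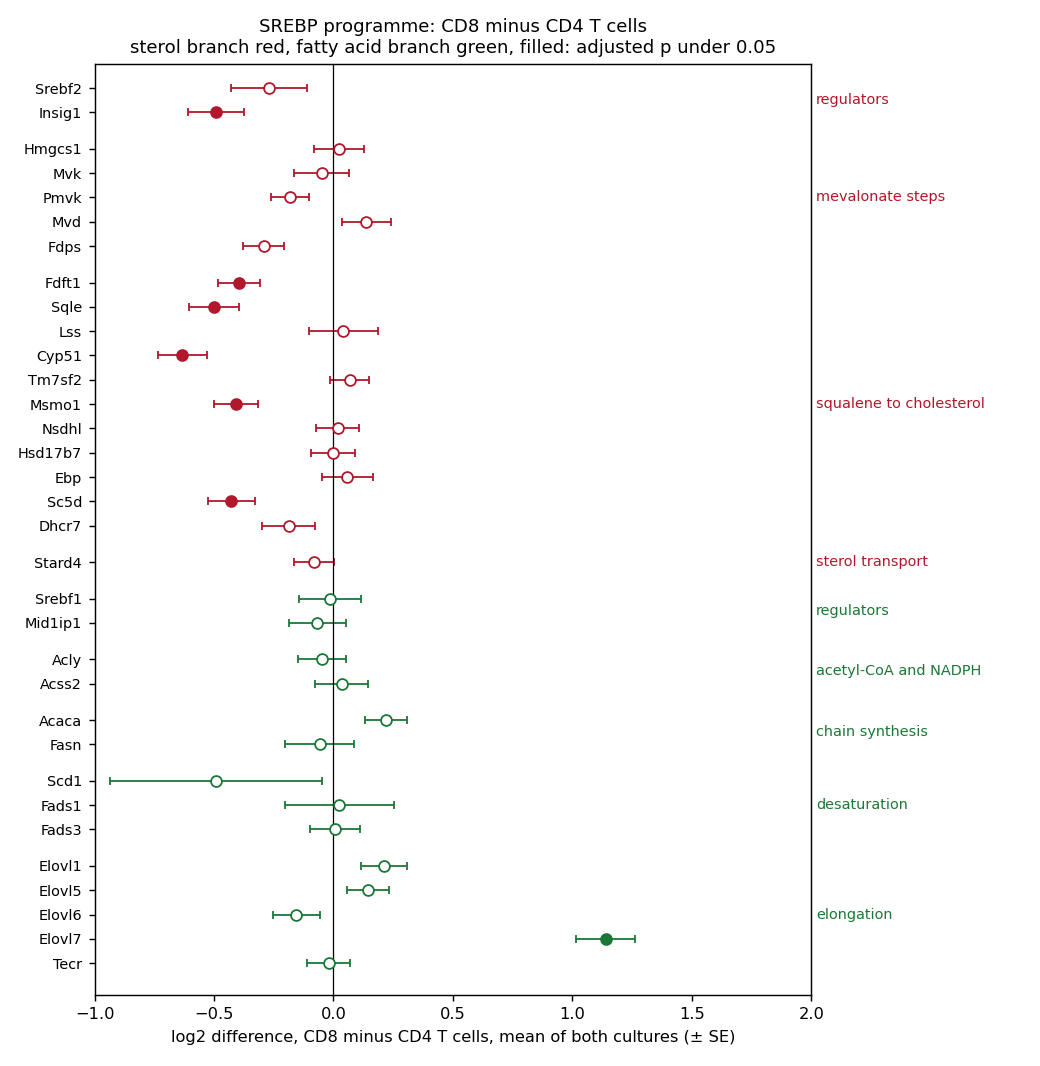
Log2 difference, CD8 minus CD4 T cells over both cultures (horizontal axis), of the 33 tested members, in rows by step of the pathway, with sterol members in red, fatty acid members in green, bars of 1 SE and filled points for limma adjusted p under 0.05. The filled sterol points are Cyp51, Sqle, Fdft1, Sc5d, Msmo1 and Insig1, all below 0, and the filled fatty acid point is Elovl7 at 1.14, whose CD4 values all lay below 5.11.

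Scd1, probe set 17365098, encodes the stearoyl-CoA desaturase that makes monounsaturated fatty acids and varied most among all members. It measured 4.50, 6.44 and 6.21 in the CD8 linoleic acid arrays, 5.01, 6.51 and 6.75 in the CD8 control arrays, 5.19, 6.96 and 6.89 in the CD4 linoleic acid arrays and 5.34, 7.04 and 6.95 in the CD4 control arrays. The 4 arrays numbered 1 were the lowest in all groups, with a mean of 5.01 ± 0.37, against 6.74 ± 0.30 for number 2 and 6.70 ± 0.34 for number 3 (SD, n = 4 each), a difference between number 1 and the mean of the others of -1.71. Fads1, probe set 17357460, encodes a desaturase of polyunsaturated chains made from linoleic acid and measured 6.72, 6.40 and 5.28 in the CD8 linoleic acid arrays, 6.92, 6.57 and 6.22 in the CD8 control arrays, 6.60, 6.32 and 5.93 in the CD4 linoleic acid arrays and 6.81, 6.34 and 5.97 in the CD4 control arrays. It ran the other way, with means of 6.77, 6.41 and 5.85 for the numbers 1, 2 and 3.

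Of the 33 members 4 differed between replicate numbers in the F test of the block fit, Scd1 (adjusted p = 2.1e-08), Fads1 (0.000786), Srebf2 (0.0363) and Srebf1 (0.0401). That is 12.1% of members, against 14% of all genes tested. Srebf2 averaged 8.89, 8.76 and 8.39 and Srebf1 6.56, 6.28 and 6.14 for the numbers 1, 2 and 3. B cell and myeloid markers moved with the number as well, and their part in these values was not tested. What a number marks is not given in the sources used here.

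Between the cell types, Scd1 was lower in CD8 T cells in every same-numbered pair, with differences of -0.69, -0.52 and -0.68 in linoleic acid culture and -0.33, -0.52 and -0.20 in control culture. The fit without a block put the difference over both cultures at -0.49 ± 0.44 (SE, limma adjusted p = 0.73). With the block the same difference passed (adjusted p = 0.000783), as it did with same-numbered arrays averaged and the block (0.00217), although the numbers did not pair the arrays of control culture throughout. It was 0.08 (adjusted p = 0.666) when the B cell marker mean of each array was a covariate. Scd1 and that mean both split by replicate number, so this fit cannot separate a B cell share from what the number marks. Within the arrays numbered 2 and 3 the Scd1 difference over both cultures was -0.48. Between the cultures, the Scd1 pairs, linoleic acid minus control, differed by -0.51, -0.07 and -0.54 in CD8 T cells, with a mean of -0.37 and an adjusted p of 0.296 with the block.

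**Figure D3:**
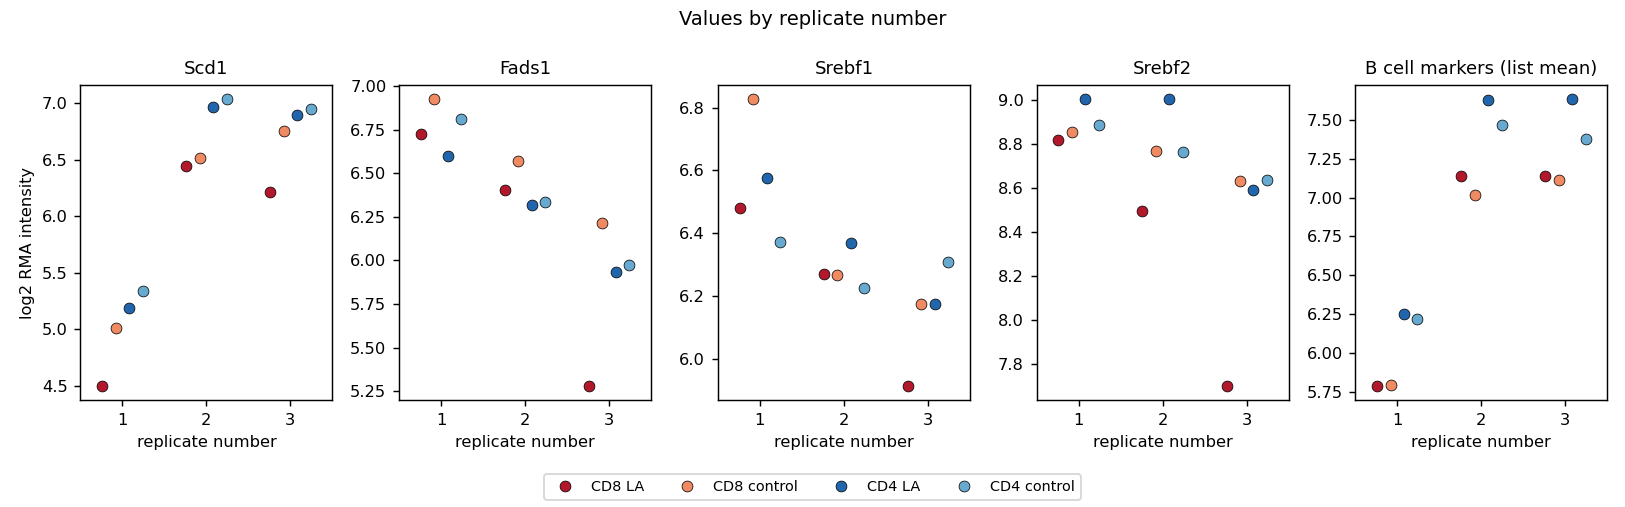
Log2 RMA intensity of Scd1, Fads1, Srebf1 and Srebf2 and mean log2 intensity of the B cell marker list (vertical axes) by replicate number (horizontal axes), coloured by group, 1 point for each of the 12 arrays. Scd1 and the B cell markers are lowest in the 4 arrays numbered 1, while Fads1, Srebf1 and Srebf2 are lowest on average in those numbered 3.

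The difference between the cell types was also taken within each culture. In linoleic acid culture 2 members passed, Elovl7 at 0.97 ± 0.17 (SE, limma adjusted p = 0.0082) and Cyp51 at -0.76 ± 0.14 (SE, limma adjusted p = 0.0123), with 0.719% of all genes called higher and 1.31% lower in CD8 T cells, 2.03% in all. Same-numbered arrays deviated together in this comparison, and with the replicate number as a block 7 members passed, with 1.78% of genes higher and 3.79% lower, 5.57% in all. Those added were Scd1 at -0.63 (adjusted p = 0.00338), Msmo1 at -0.50 (0.0126), Sc5d at -0.49 (0.0352), Sqle at -0.50 (0.0429) and Fdft1 at -0.43 (0.0478). B cell markers moved the same way in this fit, with all 13 lower in CD8 T cells (median -0.48), 7 past the threshold with the block and 0 without it. Their part in these calls was not tested. Srebf2 at -0.53 (limma adjusted p = 0.361, 0.0522 with the block), Pmvk at -0.35 (0.177, 0.0762), Fdps at -0.35 (0.224, 0.11), Dhcr7 at -0.35 (0.396, 0.122) and Insig1 at -0.49 (0.216) did not pass. The sterol median was -0.35, with 15 of 19 lower, against -0.07 for the fatty acid members and -0.02 for all genes, and it was -0.21 without CD8 linoleic acid replicate 3 and -0.26 without all arrays numbered 3, where Elovl7 passed (adjusted p = 0.0353), Cyp51 did not (0.0716) and 0.97% of genes were called. Arrays of 8 of the 19 sterol members did not overlap and were lower in CD8, against 8.98% of genes. The call of Cyp51 ended when CD8 linoleic acid replicate 2 (adjusted p = 0.0606), CD4 linoleic acid replicate 1 (0.0633) or CD4 linoleic acid replicate 2 (0.0713) was left out, and Msmo1 passed without CD8 linoleic acid replicate 1 (0.0362). With only the 6 arrays of this culture in the fit, neither Cyp51 (0.086) nor Elovl7 (0.0702) passed.

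In control culture, where 1.03% of genes were called higher and 0.929% lower in CD8 T cells, 1 member passed, Elovl7 at 1.31 ± 0.17 in measured intensity (SE, limma adjusted p = 0.000631). Its CD4 control values lay below 5.11, and set to that level they make it at least 1.33-fold higher in CD8 T cells. In linoleic acid culture, where 1 CD8 array also lay below 5.11, the lower bound was 1.2-fold. Lower bounds do not rank the cultures. Cyp51 lay at -0.51 ± 0.14 (SE, limma adjusted p = 0.117), Sqle at -0.50 (0.137) and Insig1 at -0.49 (0.234). These 3 and Fdft1 at -0.36, Sc5d at -0.36 and Msmo1 at -0.31 were the 6 sterol members past an unadjusted p of 0.05, all lower, where 4.39% of genes were lower by that rule. The sterol median was -0.02, against 0.10 for the fatty acid members and 0.00139 for all genes, and its sign varied over the alternatives run (-0.065 to 0.018). Shifting each array to one median brought Cyp51 past the threshold (-0.53, adjusted p = 0.0447). Whether the cell types differed more in one culture than in the other is the same contrast as the difference between the linoleic acid effects.

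Linoleic acid changed no member past the threshold in either cell type. In CD8 T cells 0 of 33 members passed in limma, as did 0% of all genes, and 2 members were past an unadjusted p of 0.05, both lower, where 2.36% of genes were higher and 2.72% lower by that rule. With the replicate number as a block 1 gene of the whole table passed (0.00698%) and still 0 members, of which 7 were past an unadjusted p of 0.05, all lower, against 8.62% of genes lower by that rule. The members' differences, linoleic acid minus control, were negative for 30 of 33, against 63.1% of all genes. Their medians were -0.15 for the sterol and -0.14 for the fatty acid branch, against -0.06 for all genes. After each array was shifted to one median the branch medians were -0.07 and -0.06. That shift moves the difference of every gene by the same amount, so the distance between the branches and all genes stayed as it was. Markers of other cells moved in this comparison too, with the myeloid markers higher in 9 of 9 (median 0.17), the B cell markers higher in 9 of 13 (median 0.10) and the T cell markers lower in 5 of 5 (median -0.07), 0 of them past the threshold. Their part in the members' differences was not tested.

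Pmvk and Dhcr7 were the members with unadjusted p under 0.05 in CD8 T cells. For Pmvk the same-numbered differences were -0.28, -0.32 and -0.25, with no overlap of the linoleic acid and the control arrays. Their mean was -0.28 (95% interval -0.52 to -0.043, unadjusted p = 0.024, adjusted p = 0.757 in limma). For Dhcr7 they were -0.04, -0.42 and -0.58, again without overlap, and the mean was -0.35 (95% interval -0.68 to -0.012, unadjusted p = 0.0433, adjusted p = 0.757 in limma). Acaca, Elovl5 and Tecr also did not overlap, at -0.12, -0.11 and -0.13, so 5 of 33 members were lower without overlap, against 5.7% of all genes. Among all 33, the lowest adjusted p was 0.757, and 0.296 with the block.

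For Fads1, Srebf2 and Fasn in CD8 T cells the pair numbered 3 differed most. It holds the linoleic acid array whose median and several marker levels lay at the end of their ranges. Whether those levels bear on the members' differences was not tested. Fads1 differed by -0.20, -0.17 and -0.94 in the same-numbered pairs. Srebf2 differed by -0.04, -0.28 and -0.93, and Fasn by 0.06, -0.16 and -0.93. In each of these 3 genes the pair numbered 3 gave most of the mean, which was -0.43 for Fads1, -0.42 for Srebf2 and -0.34 for Fasn. With all arrays numbered 3 left out, so that pairs stayed whole, the differences were -0.18 for Fads1, -0.16 for Srebf2 and -0.05 for Fasn, against -0.30 for Pmvk and -0.23 for Dhcr7. The branch medians were then -0.08 for sterol and -0.06 for fatty acid members. Without the 4 arrays numbered 1 instead, the sterol median moved the other way, to -0.244 with 18 of 19 lower. With only CD8 linoleic acid replicate 3 left out and its control kept, Fads1 lay at -0.0066, Srebf2 at -0.10 and Fasn at -0.03, and the medians at -0.11 and -0.05. Cyp51 at -0.27 ± 0.14, Msmo1 at -0.26 ± 0.13, Sqle at -0.23 ± 0.15, Srebf1 at -0.20 ± 0.18 and Elovl6 at -0.17 ± 0.14 (SE) lay lower too, and none passed (limma adjusted p = 0.757 to 0.765).

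In CD4 T cells no member passed in limma, with or without the block, and 0 of 33 were past an unadjusted p of 0.05, where 0.768% of genes were higher and 1.84% lower by that rule. Of all genes 0% passed, and 0.00698% with the block. The sterol median was -0.02, with 14 of 19 lower, and the fatty acid median -0.0032, with 7 of 14 lower, against -0.0047 for all genes, with 51.4% lower. Over the alternatives run the sterol median took both signs (-0.077 to 0.026).

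Sqle had the largest sterol difference in CD4 T cells, with -0.12, -0.06 and -0.51 in the same-numbered pairs and a mean of -0.23 (95% interval -0.54 to 0.089). In the fatty acid branch Fasn was higher in all 3 pairs, by 0.20, 0.18 and 0.10, with a mean of 0.16 ± 0.20 (SE, limma adjusted p = 1). Elovl7 and Fads3 lay below 5.11 in all 6 CD4 arrays, so no difference is given for them here, and neither passed. Mid1ip1 at -0.19 ± 0.17, Mvd at 0.13 ± 0.15, Msmo1 at -0.08 ± 0.13 and Stard4 at -0.06 ± 0.12 (SE) did not pass either. Tm7sf2, at -0.05, was the 1 member lower without overlap, and Elovl7 the 1 member higher, within values below 5.11, where 2.92% of all genes were higher and 4.52% lower in this way.

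**Figure D4:**
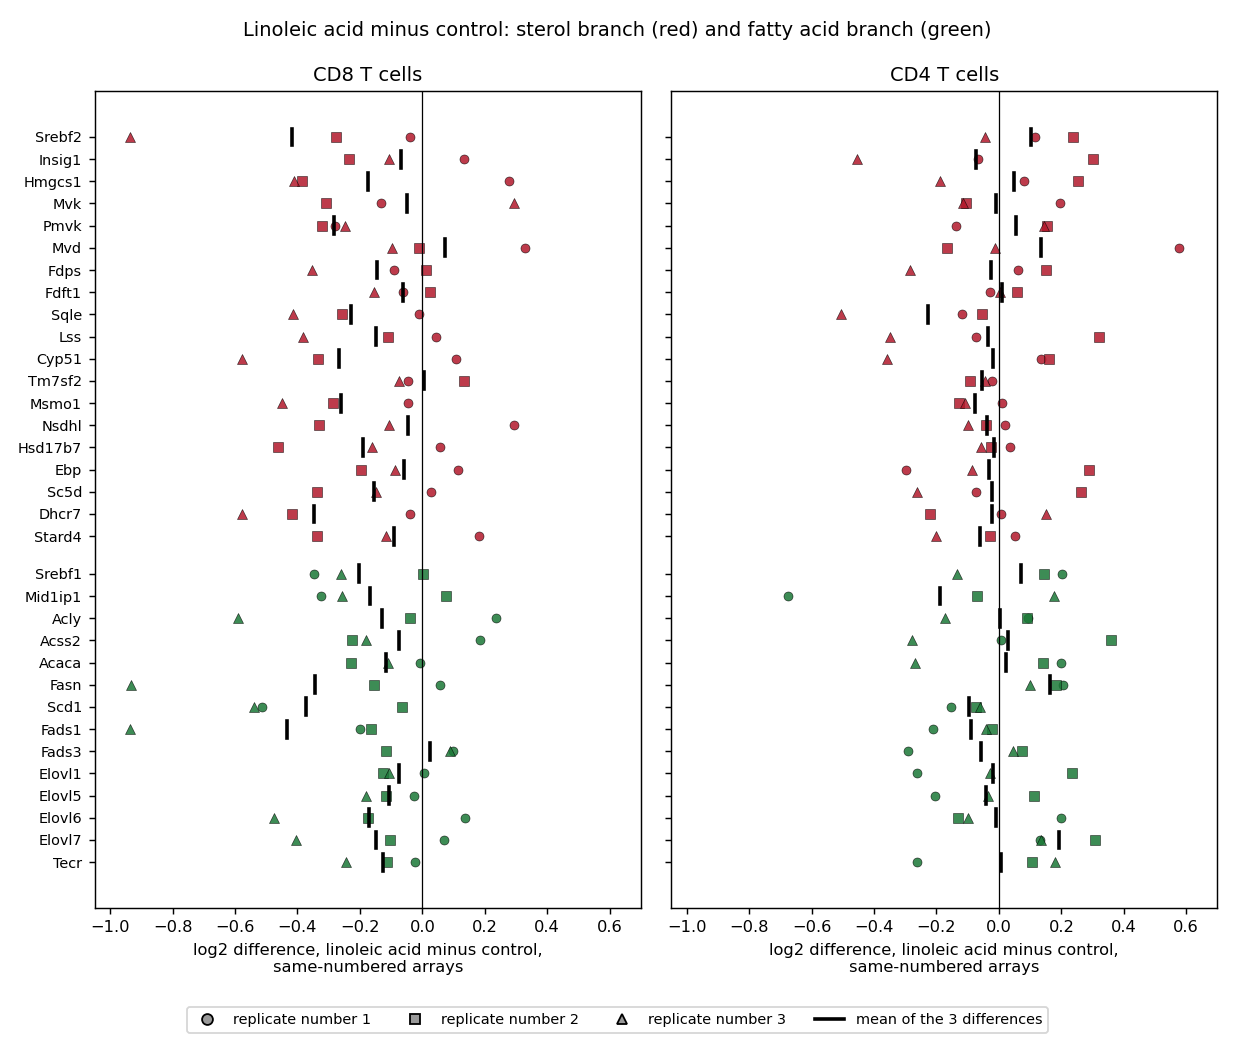
Log2 difference, linoleic acid minus control (horizontal axis), of each same-numbered pair of arrays for the tested members (rows), in CD8 T cells on the left and CD4 T cells on the right, with a black bar at the mean of 3 pairs. In CD8 T cells the pair numbered 3 stands apart for Fads1, Srebf2 and Fasn, and in CD4 T cells the means of most members lie near 0. Fads3 in both panels and Elovl7 in CD4 T cells are drawn from values below 5.11.

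Averaged over both cell types, 0 members and 0% of genes passed, and 0 members and 0.182% of genes with the block. Sqle was the 1 member past an unadjusted p of 0.05, where 1.9% of genes were higher and 2.94% lower, at -0.23 ± 0.10 (SE, 95% interval -0.45 to -0.0037, adjusted p = 0.925 in limma). It was lower in 6 of 6 same-numbered pairs, as were Scd1 and Fads1. How many of all genes were lower in every pair was not counted, so these 3 have no share to be set against. Medians were -0.08 for the sterol and -0.06 for the fatty acid branch, against -0.04 for all genes, and 31 of 33 members were negative, against 63.1% of genes.

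The difference between the 2 effects, CD4 minus CD8, is the comparison the study was designed for, and 0 members and 0 genes passed it in limma, with the block and without. No member was past an unadjusted p of 0.05, where 0.929% of genes were higher and 1.42% lower by that rule, and 3 were with the block, Srebf2 (0.0271), Fasn (0.0404) and Pmvk (0.0438), with adjusted p = 0.6 for each, where 5.28% of genes were higher by that rule. Pmvk differed by 0.34 ± 0.16 (95% interval -0.0015 to 0.68), Srebf2 by 0.52 ± 0.32 (-0.16 to 1.20), Fasn by 0.51 ± 0.29, Dhcr7 by 0.32 ± 0.22, Srebf1 by 0.27 ± 0.26, Cyp51 by 0.25 ± 0.20 and Elovl6 by 0.16 ± 0.20 (SE). Elovl7 is left out here because its CD4 values lay below 5.11. Without all arrays numbered 3, Srebf2 differed by 0.33, Fasn by 0.24 and Pmvk by 0.31, and without CD8 linoleic acid replicate 3 alone by 0.20, 0.19 and 0.30. The medians were 0.11 for sterol and 0.14 for fatty acid members, against 0.04 for all genes. Without the 4 arrays numbered 1 the sterol median was 0.231, with 16 of 19 higher. Standard errors of single members had a median of 0.21 in this contrast. They do not measure the error of a branch median, and the branch medians were not tested.

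Other genes of the pathway, such as the escort, the proteases and the lipid receptors, came from a further list of 35 genes, of which 29 had a probe set of their own and 24 were tested. Hacd3, which encodes a dehydratase of fatty acid elongation, was the 1 gene of these to pass between the cell types, at 6.86 in CD8 and 7.30 in CD4 T cells over both cultures (-0.44 ± 0.10 SE, limma adjusted p = 0.0159), where 2.76% of all genes were lower. In linoleic acid culture it lay at -0.49 (adjusted p = 0.104, 0.0349 with the block, where 3.79% of genes were lower). None of the 24 passed in the linoleic acid comparisons in limma. In CD8 T cells 18 of the 24 were lower with linoleic acid (median -0.16), against 63.1% of all genes, and 2 of them were past an unadjusted p of 0.05, where 2.72% of genes were lower.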

How the data were processed

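The authors deposited 1 log2 intensity for each of 41345 probe sets on each of 12 arrays, made with RMA per the submitters' processing notes. For the RMA software, its version and the genome build, nothing is given in the sources used here. Probe sets took their names from GEO's platform annotation, 23521 with a single symbol, 1814 with several and 16010 with none, and those with several named no gene. Genes whose mean reached the 40th percentile of probe set means, log2 4.28, were tested, 14323 of 22180 named. Each of the 7 contrasts was fitted in limma 3.58.1 under R 4.3.3 (lmFit and eBayes, two-sided moderated test, 4 group means, 12 arrays, no block; degrees of freedom 8 residual and 5.67 prior), with Benjamini-Hochberg adjustment over all genes tested and a threshold of 0.05. The test was tried on simulated data first. Precision is limited by the number of arrays.

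The labels number the arrays 1 to 3 in each group. Deviations of arrays with numbers 1, 2 and 3 from their group means correlated at 0.43, 0.19 and 0.42 between the CD8 groups, 0.61, 0.19 and 0.32 between the CD4 groups, 0.58, 0.26 and 0.52 between CD8 and CD4 in linoleic acid culture, and 0.54, -0.013 and 0.42 in control culture. All but the last set lay over 0.1 throughout, so the numbers were taken as pairs there, on the evidence of the data alone, and the fit with the replicate block (6 residual degrees of freedom) is given beside those results.

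The members, the other pathway genes, the cell type markers and the comparisons were chosen with earlier results of these data known. Values in every array are given for members past the threshold in any contrast, with or without the block, for the 4 members of each branch with the smallest p in each contrast, and for the regulators and desaturases, and the rest by range. Motifs were counted on both strands of the RefSeq promoter windows. Alternatives were the block, no filter or a stricter one (60th percentile, log2 5.17), arrays shifted to one median, repeated quantile normalization, the mean over probe sets, the compared groups alone, eBayes with trend and robust settings, and each array left out. Chosen after seeing the data were the fits without the 4 arrays numbered 1 or the 4 numbered 3, with same-numbered arrays averaged and with the B cell marker mean as a covariate, the F test of the replicate number and the motif TCACNCCA. Other cell types had marker levels of 3.93 to 5.02 (NK cell, 3 of 4 measured) and 4.48 to 4.84 (platelet, 4 measured), and 0 of 4 erythroid genes were measured.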

Additional observations from a re-analysis of the deposited data

How the results depend on the processing

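Of the values for named members under the alternatives, 1123 kept their direction and their side of the threshold, 33 lost and 13 gained a call, and 9 reversed. Counts of members called moved over 1.5 times 13 times and less 119 times. The latter include every count of the linoleic acid comparisons and of their difference, which stayed at 0. Between CD8 and CD4 T cells the count kept within 1.5 times in 9 of 16 alternatives in linoleic acid culture. It did so in 14 of 16 in control culture and in 20 of 24 over both cultures. Branch medians moved by more than the SD of the branch mean between replicates (0.0847 sterol, 0.0929 fatty acid) 8 times and by less 226 times, so that a median near 0 could change sign within it. No linoleic acid comparison called a member under any alternative run. In linoleic acid culture the 2 members between CD8 and CD4 T cells became 7 with the replicate block (5.57% of all genes), 1 under the stricter filter (3.2%), 0 with the compared groups alone (0.963%), 1 without the arrays numbered 3 (0.97%) and 1 to 3 when each array was left out (1.05% to 2.25%). In control culture the 1 member became 0 under the stricter filter, where Elovl7 was not tested (2.88%), and 2 with arrays shifted to one median (2.39%). Over both cultures the 7 members became 9 with the replicate block (9.23% of all genes), which added Fdps (adjusted p = 0.0403) and Scd1 (0.000783) where the pairing does not hold throughout, 9 with same-numbered arrays averaged and the block (9.32%), 2 with them averaged without it (2.21%), 3 without the arrays numbered 1 (3.54%), 2 without those numbered 3 (2.78%) and 4 to 8 when each array was left out (3.57% to 5.19%). The block changed no other call of a member.

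When each array was left out, the sterol median between CD8 and CD4 T cells in linoleic acid culture ran between -0.356 and -0.211, the fatty acid median there between -0.125 and 0.0302, and the fatty acid median of the linoleic acid effect in CD4 T cells between -0.0469 and 0.09. Without the arrays numbered 3 the sterol median between CD8 and CD4 T cells in linoleic acid culture was -0.262. Without the arrays numbered 1, the sterol median of the linoleic acid effect was -0.244 in CD8 T cells and that of the difference of effects 0.231, and the fatty acid median between the cell types in control culture was 0.2. No reversed value was called: Fads3 with linoleic acid in CD4 T cells (-0.145 to 0.0588 when each array was left out, the highest without CD4 control replicate 1, and 0.0591 without the arrays numbered 1), Mvd (-0.0889) and Mid1ip1 (0.0544) in the same comparison without the arrays numbered 1, Stard4 in it (0.0116) and Elovl6 averaged over both cell types (0.00706) without the arrays numbered 3, Fasn between the cell types in linoleic acid culture (-0.48 to 0.00116, the highest without CD8 linoleic acid replicate 3), Srebf1 with linoleic acid in CD8 T cells (-0.331 to 0.000293, the highest without CD8 control replicate 1) and Scd1 over both cultures (0.078 with the B cell covariate). The cause of these changes was not tested. The signal of Elovl7, Fads3, Me1 and Fads2 lay near that of the olfactory and vomeronasal receptor genes, which limits what these arrays can show of them.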
